A study of Mus musculus with 4 samples.

Results

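Transcripts of 10 genes that recombine antigen receptor genes or control transcription in B lymphocytes were followed in single marrow cells: Rag1, Rag2, Dntt, Lef1, Ebf1, Pou2af1, Spib, Irf4, Bach2 and Fcrla. The genes were taken by name as a list of B lineage regulators, chosen with earlier results of these data known. They were looked up in every plate, and all 10 of the 10 were present among 17507 gene names. The cells came from the bone marrow of C57BL/6 mice, with no other genotype or treatment in the labels, and were freed with 2 enzymes, collagenase IV at 2 mg/mL beside dispase at 1 mg/mL. All were sorted as CD51-, a class the labels call TNCs without spelling the name out, and were split into a CD44+ and a CD44- sort; CD51 is an integrin alpha chain and CD44 a hyaluronan receptor. The series title asks about the blood cell origin of marrow cells that lack CD45. RNA was read by SORT-seq, in which cells sorted under mineral oil are barcoded well by well and transcript molecules are counted by tags. The 4 plates took a single sorted cell in each well, and a well was kept with at least 1000 transcripts, which left 343 of 1536 wells.

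The CD44+ sort gave 3 libraries with 56, 95 and 87 kept wells, and the CD44- sort gave 3 libraries with 44, 24 and 37. Library 1 of each sort is a plate of its own, and libraries 2 and 3 come from plates that held CD44+ cells in the upper and CD44- cells in the lower rows. The median well held 1994, 5162 and 11225 transcripts in the CD44+ libraries and 1848, 1795 and 2544 in the CD44- libraries. On the shared plates CD44+ wells thus held more transcripts, and whether this reflects the cells or the reading was not tested. Wells of low quality, with an excess of Kcnq1ot1 or of mitochondrial transcripts, made up 34.4% of the kept wells. All plates use the same set of well numbers, so a shared number does not mark a shared cell. No label ties a plate to an animal, and p-values therefore measure only the spread between libraries.

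B lymphocytes assemble their receptor genes from separate gene segments while they mature in the marrow. Rag1 and Rag2 encode the subunits of the recombinase that cuts next to these segments, and Dntt encodes terminal deoxynucleotidyl transferase, which adds untemplated bases at the joins. Ebf1 is a transcription factor needed to enter the lineage, Lef1 is a Wnt pathway factor of lymphoid progenitors, and Pou2af1 encodes the coactivator OBF-1 of octamer-binding factors. Spib (an ETS factor), Irf4 (an interferon regulatory factor) and Bach2 (a repressor) act at later steps of the lineage, and Fcrla encodes an Fc receptor-like protein found inside B cells. Cd79a and Cd79b encode the signalling chains of the B cell receptor and its precursor, and served to mark B lineage wells.

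The recombinase genes lie tail to tail on chromosome 2 of GRCm38 (mm10; GENCODE vM21): Rag2 from 101624718 to 101632529 on the forward strand and Rag1 from 101638282 to 101649501 on the reverse strand, 5752 bases apart. The gene B230118H07Rik overlaps Rag1 on the same strand and Rag2 on the opposite strand; it was found in 13 of 134 wells with Cd79a or Cd79b and in 13 of 209 other wells. The use of strand in the counting is not given in the sources used here, so transcripts of these overlapping genes may not be fully separated. The start regions of the 3 recombination genes, and of Bach2 for comparison, are printed from the RefSeq table of GRCm38.p6, each with 250 bases before and 50 after the start. They lie at chr2:101649483-101649782 on the reverse strand (Rag1), and on the forward strand at chr2:101624462-101624761 (Rag2), chr19:41029025-41029324 (Dntt) and chr4:32417185-32417484 (Bach2). They are shown because Rag1 and Rag2 share a locus but not a distribution over wells, Dntt had the highest level and Bach2 had the most motif matches. The Bach2 window is the start in the RefSeq table, which lies 178631 bases inside the gene as GENCODE vM21 draws it (from 32238804), so it is an internal start. Capitals mark matches to 7 motifs searched on both strands: the E-box CAGGTG, the octamer ATGCAAAT, the EBF palindrome, the ETS-IRF composite, the LEF/TCF core CTTTGAT, the BACH and AP-1 core TGANTCA and the recombination heptamer CACAGTG.
Rag1: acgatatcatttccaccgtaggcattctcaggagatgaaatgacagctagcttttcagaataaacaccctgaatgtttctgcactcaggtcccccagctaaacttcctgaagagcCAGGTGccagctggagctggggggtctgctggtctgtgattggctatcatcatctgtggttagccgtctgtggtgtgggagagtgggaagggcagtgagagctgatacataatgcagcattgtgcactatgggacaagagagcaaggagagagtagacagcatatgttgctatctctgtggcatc
Rag2: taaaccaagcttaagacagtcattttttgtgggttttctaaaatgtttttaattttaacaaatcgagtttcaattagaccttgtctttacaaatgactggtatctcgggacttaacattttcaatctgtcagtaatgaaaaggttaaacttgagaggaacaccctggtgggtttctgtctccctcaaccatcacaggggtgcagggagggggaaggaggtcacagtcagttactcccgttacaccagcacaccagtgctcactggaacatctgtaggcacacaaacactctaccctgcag
Dntt: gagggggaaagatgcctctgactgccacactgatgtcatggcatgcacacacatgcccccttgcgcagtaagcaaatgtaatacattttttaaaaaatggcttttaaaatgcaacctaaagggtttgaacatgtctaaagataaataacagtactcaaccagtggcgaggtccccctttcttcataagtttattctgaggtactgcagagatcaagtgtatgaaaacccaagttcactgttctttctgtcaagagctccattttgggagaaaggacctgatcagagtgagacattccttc
Bach2: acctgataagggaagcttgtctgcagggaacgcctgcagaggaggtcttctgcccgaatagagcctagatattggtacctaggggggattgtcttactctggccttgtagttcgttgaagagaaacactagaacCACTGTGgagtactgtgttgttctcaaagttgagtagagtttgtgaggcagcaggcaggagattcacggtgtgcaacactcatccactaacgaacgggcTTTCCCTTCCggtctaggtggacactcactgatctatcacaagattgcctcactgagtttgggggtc

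Rag1 held an E-box that begins at base -135 from the start, a motif present in 20.2% of 32851 promoters of this length, while the windows of Rag2 and Dntt held none of the 7 motifs. Bach2 held a reverse match to the ETS-IRF composite at base -17, present in 2.72% of promoters, and a reverse heptamer at base -116, present in 6.81%. The octamer was present in 1.74% of promoters, the EBF palindrome in 0.904%, the LEF/TCF core in 3.73% and the BACH and AP-1 core in 7.81%, and no window of the 10 genes held any of these 4. An E-box was also present for Lef1 (at 1 of 4 start sites) and Fcrla, and a heptamer for Pou2af1. The matches did not overlap each other. A match describes letters in a window and says nothing about binding.

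Wells with Cd79a or Cd79b numbered 134, of which 88 were CD44+ and 46 CD44-. They numbered 14 of 56, 56 of 95 and 18 of 87 wells in the CD44+ libraries and 16 of 44, 19 of 24 and 11 of 37 in the CD44- libraries. CD44+ libraries averaged 34.9% ± 21.0 and CD44- libraries 48.4% ± 26.8 (SD, n = 3 each; exact permutation p = 0.5, two-sided). With 3 libraries a sort, no exact p can fall below 0.1. The difference, CD44+ minus CD44-, was -11.4, -20.2 and -9.04 percentage points in the 3 same-numbered pairs (exact permutation p = 0.25 over the pairs, the smallest they can give; added after the data were seen). Replicate 2 was the highest of both sorts, and the ranges of the sorts overlapped. In 43 of the 134 wells the mark rested on a single transcript.

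Genes of precursor B cells were found mainly in the same wells, a check of the mark. Vpreb1 and Igll1, which encode the surrogate light chain of the pre-B receptor, were found in 53 and 54 of 134 Cd79 wells against 4 and 11 of 209 other wells. Of genes of later B cells, Ms4a1, which encodes CD20, was found in 5 Cd79 wells and 1 other well, while the 16 genes of the later B cell surface and of antigen presentation in the files summed to 1186 CPM over Cd79 wells and 182 CPM over other wells. The constant genes of immunoglobulins were not analysed here.

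Transcripts of 8 of the 10 genes lay mainly in Cd79 wells. Rag1 was found in 40 of 134 Cd79 wells (29.9%) and in 3 of 209 other wells (1.44%). Dntt was found in 47 against 5 wells, Lef1 in 43 against 4, Pou2af1 in 49 against 5, Spib in 48 against 6, Irf4 in 35 against 2, Bach2 in 45 against 13 and Fcrla in 41 against 4. Between 90.3% (Bach2) and 98.3% (Rag1) of the transcripts of these 8 genes lay in Cd79 wells. The exceptions were Ebf1, with 34 Cd79 wells and 12 other wells, and Rag2, with 32 of each. RNA quality differed between the classes, with 26 of 134 Cd79 wells (19.4%) and 92 of 209 other wells (44.0%) of low quality; without these wells an unfiltered edgeR fit of the classes called 8 of the 10 genes, among 291 of 14856 genes called.

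**Figure D1:**
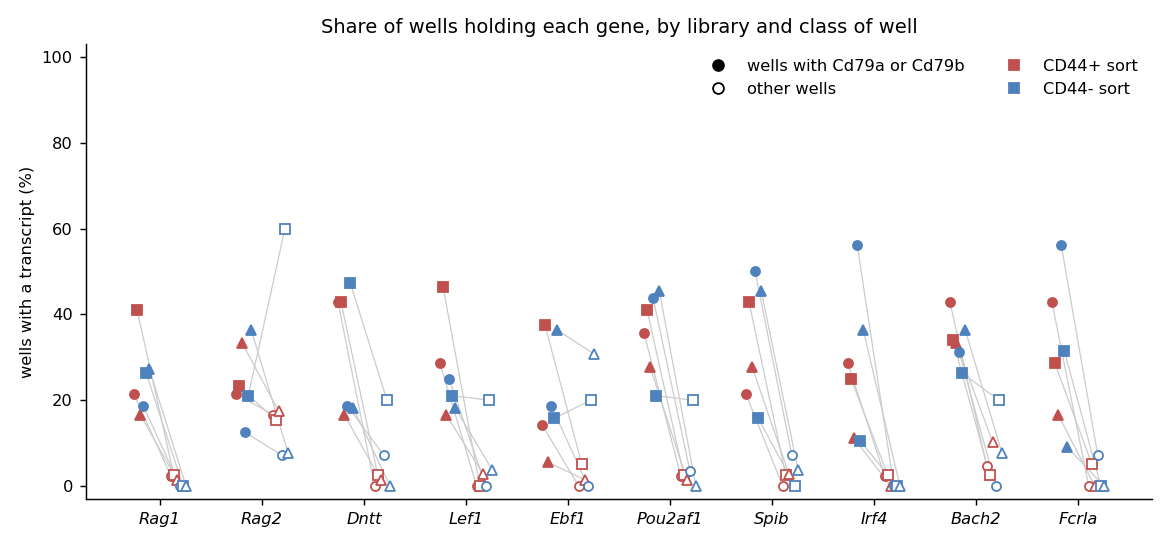
Share of kept wells with at least 1 transcript of each gene (y axis, percent) in wells with Cd79a or Cd79b (filled, left) and in other wells (open, right) of the 6 libraries; lines join the points of a library, circles, squares and triangles are replicates 1, 2 and 3, red is CD44+ and blue is CD44-. Filled points lie above open points for most genes, while those of Rag2 and Ebf1 are mixed; the other wells of CD44- replicate 2 number 5.

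Levels in CPM (transcripts per 1000000) were compared between the summed Cd79 wells and the summed other wells of each library. Among the recombination genes, Rag1 stood at 47.3 at the lowest, 113 at the median and 287 CPM at the highest of 6 libraries in Cd79 wells, against 0, 0.339 and 8.97 CPM in other wells. Dntt stood at 73.1, 347 and 786 CPM in Cd79 wells against 0, 1.75 and 115 CPM in other wells. Rag1 did not overlap between the classes, and Dntt was higher in Cd79 wells in 6 of 6 libraries although its range overlapped. Rag2 stood at 30.1, 78.8 and 105 CPM in Cd79 wells against 10.9, 29.0 and 113 CPM in other wells. It was higher in Cd79 wells in 5 of 6 libraries, all but CD44- library 2, whose other wells number 5, and the classes overlapped.

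Lef1 had 30.1, 121 and 225 CPM in Cd79 wells at the lowest, median and highest library, against 0, 1.02 and 113 CPM in other wells. Ebf1 had 34.4, 67.9 and 123 CPM against 0, 11.5 and 209 CPM. Lef1 was higher in Cd79 wells in 5 of 6 libraries and Ebf1 in 4 of 6, and the highest single value of Ebf1 belonged to other wells. The coactivator gene Pou2af1 had 75.7, 232 and 471 CPM in Cd79 wells against 0, 9.59 and 28.3 CPM in other wells.

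Spib had 51.6, 155 and 362 CPM in Cd79 wells against 0, 2.09 and 49.1 CPM in other wells. Irf4 had 12.9, 114 and 417 CPM against 0, 0 and 8.97 CPM. Bach2 had 75.7, 148 and 278 CPM against 0, 11.7 and 28.3 CPM. For Rag1, Pou2af1, Spib, Irf4 and Bach2, every Cd79 sum lay above every sum of other wells, which held for 92 of 16922 genes in all (0.544%), and for 24 of the 1112 genes that pass a filter on low counts (2.16%). Fcrla had 64.4, 171 and 863 CPM in Cd79 wells against 0, 0 and 81.9 CPM in other wells, higher in 6 of 6 libraries with an overlap between libraries.

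The class difference was tested with edgeR's quasi-likelihood test with the library as a block. With the usual filter on low counts, 1112 genes were tested and 15 passed (1.35%), 12 higher (1.08%) and 3 lower (0.270%) in Cd79 wells. Dntt was the only one of the 10 genes that the filter kept, and it was higher in Cd79 wells by 4.63 on the log2 scale (SE 0.90, adjusted p = 0.0446). It had 414 transcripts in Cd79 wells and 10 in other wells, so it passed the filter through its level in Cd79 wells. The direction of this call was therefore not independent of the filter. That call was lost with no library block (4.75, adjusted p = 0.140), with both Cd79 genes required (3.94, adjusted p = 0.104) and without CD44- library 3 (4.34), CD44+ library 1 (4.27) or CD44+ library 3 (4.23), where adjusted p ranged from 0.114 to 0.135. The genes called with it included Vpreb3 (5.36, SE 0.59, adjusted p = 0.00327), Vpreb1 (5.63, adjusted p = 0.0249) and Igll1 (4.82, adjusted p = 0.0209), the last 2 of the surrogate light chain and Vpreb3 a relative of Vpreb1. Without the filter 16922 genes were tested, 239 passed (1.41%) and 164 were higher in Cd79 wells (0.969%), with 75 lower (0.443%).

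In the unfiltered edgeR fit 8 of the 10 genes were higher in Cd79 wells and 0 were lower, with adjusted p-values over all 16922 genes. The log2 differences were largest for Rag1 (5.36, SE 0.74, adjusted p = 1.07e-09), Pou2af1 (5.09, SE 0.65, adjusted p = 1.92e-11) and Dntt (4.92, SE 0.63, adjusted p = 1.40e-11). They were 4.82 for Irf4, 4.71 for Fcrla, 4.39 for Spib, 3.75 for Lef1 and 3.62 for Bach2. Ebf1 (1.47, SE 0.59, adjusted p = 0.353) and Rag2 (0.65, SE 0.55, adjusted p = 0.961) did not pass. The p-values of this fit match a normal test of the difference over its SE, with the spread pooled over genes. The spread of a single gene between libraries thus carried little weight in them. For Dntt the unadjusted edgeR p was 4.14e-15 here and 0.000401 in the filtered fit. Its SE was 0.63 against 0.90. DESeq2 called the same number, 8 of 10, among 148 of 5110 genes called (2.90%; 1.92% higher), again without Ebf1 (adjusted p = 0.474) and Rag2 (adjusted p = 0.904). Over the 10 genes the median log2 difference was 4.55, against -0.17 over all genes. The list was chosen with earlier results of these data known, so the share of its genes called is a description.

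The unfiltered fit was repeated with other settings, a choice made after the data were seen. It called 8 of the 10 genes as higher with each of the 6 libraries left out in turn, where 0.336% to 1.22% of all genes were called higher. When every well was thinned to 1000 transcripts it called 3 of 10 (Dntt, Irf4 and Bach2), and 0.0597% of all genes. A test of whether the class difference itself differed between the sorts was made on the filtered genes, of which 1 of 1112 passed. In all, 176 of them had an unadjusted edgeR p under 0.05, so an equal difference in both sorts is not shown. Dntt was the only member among the filtered genes. Its class difference was larger in the CD44+ sort by 4.01 on the log2 scale (SE 1.55, unadjusted p = 0.0282, adjusted p = 0.255 in edgeR). Markers of neutrophils and monocytes went both ways in the unfiltered fit, with 6 of 12 above 0. The 5 called were all higher in Cd79 wells: Prtn3, Ctsg, Csf1r, Elane (2.22, adjusted p = 0.00280) and Mpo (2.41, adjusted p = 0.00147). Genes of later granulocytes had negative differences that did not pass, such as S100a9 (-1.52) and Ngp (-1.27). The summed level of these 12 genes ranged from 1577 to 19247 CPM in Cd79 wells and from 1156 to 83420 CPM in other wells, and with the filter 0 of 11 were called, with a median difference of -0.82. Their part in the result was not tested.

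Other genes of B cell development were counted in the same unfiltered fit. Of 13 genes of the pre-B receptor and its signalling, 10 were higher in Cd79 wells, including Blnk (4.78) and Il7r (4.24), which encode an adaptor of the pre-B receptor and the interleukin-7 receptor. Of 23 other B lineage regulators 7 were higher and 0 lower, including Irf8 (3.85, adjusted p = 9.86e-07), Ets1 (2.39, adjusted p = 0.00196) and Foxo1 (1.93, adjusted p = 0.0180). Of 15 genes of DNA joining and recombination only Lig4, the ligase of end joining, was higher (2.75, adjusted p = 0.00591). Pax5, a factor that holds cells in the B lineage, was found in 5 Cd79 wells and 0 other wells, a count of 0 that allows a share of up to 1.44% of other wells with a transcript. Of 16 genes of the later B cell surface and antigen presentation 8 were higher and 0 lower, including the coreceptor genes Cd72 (6.57) and Cd22 (2.69), Cd74 (4.06), which encodes the invariant chain, and the class II gene H2-Aa (3.95). In the other direction 8 of 15 stromal markers were lower in Cd79 wells.

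Markers of other lymphoid and dendritic cells were found in both classes of wells. The 8 T and NK cell markers in the files summed to 0 to 167 CPM in the Cd79 wells of a library and to 33.8 to 397 CPM in other wells, and Cd4 was at 0. Siglech, a defining gene of plasmacytoid dendritic cells, which also express Spib, was found in 4 of 134 Cd79 wells and 11 of 209 other wells. The 7 markers of these cells summed to 136 to 779 CPM in Cd79 wells and 85.0 to 737 CPM in other wells. Pooled over libraries they stood at 279 against 140 CPM. In the unfiltered edgeR fit 2 of the 7 were above 0, and 1 was called, Ly6d, higher in Cd79 wells (4.62, adjusted p = 1.34e-06). The part of these markers in the result was not tested. Fewer cells of a type and less RNA per cell cannot be told apart in summed wells.

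The number of wells with each gene was set beside the number of Cd79 transcripts, in bins chosen after the data were seen and without a test. Wells with 1 Cd79 transcript (43 wells) held Rag1 in 3, Pou2af1 in 5 and Spib in 5. Wells with 5 to 19 (26 wells) held them in 15, 15 and 13 wells, and wells with 20 or more (22 wells) in 16, 21 and 21. The median number of the 10 genes found in a well was 0 without Cd79, 1 with a single transcript, 5 with 5 to 19 and 7 with 20 or more. The median well held 2317 transcripts in the bin with 1 Cd79 transcript, 3553 in that with 5 to 19 and 7983 in that with 20 or more, and the part of depth was not tested.

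Among Cd79 wells, 27 held none of the 10 genes and 3 held all 10. No gene was found in more than 36.6% of them (Pou2af1), and Dntt had the highest level. Its level averaged 382 ± 261 CPM over the Cd79 wells of 6 libraries (SD), ahead of Fcrla with 274 ± 300 CPM and Pou2af1 with 251 ± 159 CPM. Spib, Bach2, Irf4, Rag1 and Lef1 followed between 178 and 120 CPM, and Ebf1 with 73.0 ± 34.6 CPM and Rag2 with 68.7 ± 29.2 CPM were lowest. The place of Fcrla rests on CD44- library 1, and without it the mean was 157 CPM. Pooled over all Cd79 wells the order differed, with Fcrla at 122 CPM in sixth place, and Ebf1 at 82.7 CPM above Irf4 at 59.1 CPM. Each step between neighbours in the order of means was smaller than the larger of their SDs. Levels are per transcript molecule, counted from tagged transcript ends.

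The genes of the recombinase subunits were distributed differently over wells. In Cd79 wells 22 held both Rag1 and Rag2, 18 held Rag1 alone and 10 held Rag2 alone. In other wells 1 held both, 2 held Rag1 alone and 31 held Rag2 alone. Of the 32 other wells with Rag2, 27 held a single transcript, 17 were of low quality and 14 also held Car1, a red cell precursor gene. Car1 was likewise held by 6 of the 13 other wells with Bach2, 5 of the 12 with Ebf1 and 1 of the 5 with Dntt. Its share among all other wells is not given here. The other wells with Rag2 held a median of 8892 transcripts, against 3561 over all other wells, and the part of depth was not tested. Rag2 was found in 18.5% of the 92 low-quality other wells and in 12.8% of the remaining 117.

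By the share of wells held in common over 343 wells, the genes most like Rag2 were close to each other in likeness. Likeness was measured as the wells with both genes divided by the wells with either, among 10595 genes found in at least 10 wells. Rag2 was nearest to A430078G23Rik (0.29), Rdh18-ps (0.29) and the transcription factor gene Foxo1 (0.28), with Rag1 just behind (23 of 84 wells, 0.27). Within Cd79 wells Rag1 was the nearest to Rag2 among the 10 genes (0.44). Rag1 was nearest to Pou2af1 (0.45) and Blnk (0.44). Dntt and Lef1 were both nearest to Vpreb1 (0.51 each), and Pou2af1 (0.57) and Spib (0.49) to Blnk. Irf4 (0.44), Bach2 (0.40) and Fcrla (0.38) were nearest to Pou2af1. These values share the depth of the wells and are a description.

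Ebf1 was found in separate kinds of wells. Of 46 wells with Ebf1, 31 were Cd79 wells with fewer than 10 of 15 stromal markers, and these held at most 3 such markers and a median of 14.0 Cd79 transcripts. Another 11 were wells without Cd79 that held 12 to 14 stromal markers, which took 4.84% to 10.3% of their transcripts; all 11 held Cxcl12, the chemokine of the marrow niche, and 1 held Ptprc, which encodes CD45. Ebf1 was thus present in 31 of 128 Cd79 wells with few stromal markers (24.2%), in 11 of 15 such stromal wells (73.3%) and in 1 of the 194 remaining wells. The other 3 of the 46 wells held both Cd79 and at least 10 stromal markers. The level was 83.0 CPM in those Cd79 wells, 297 CPM in the stromal wells and 0.987 CPM in the remaining ones.

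**Figure D2:**
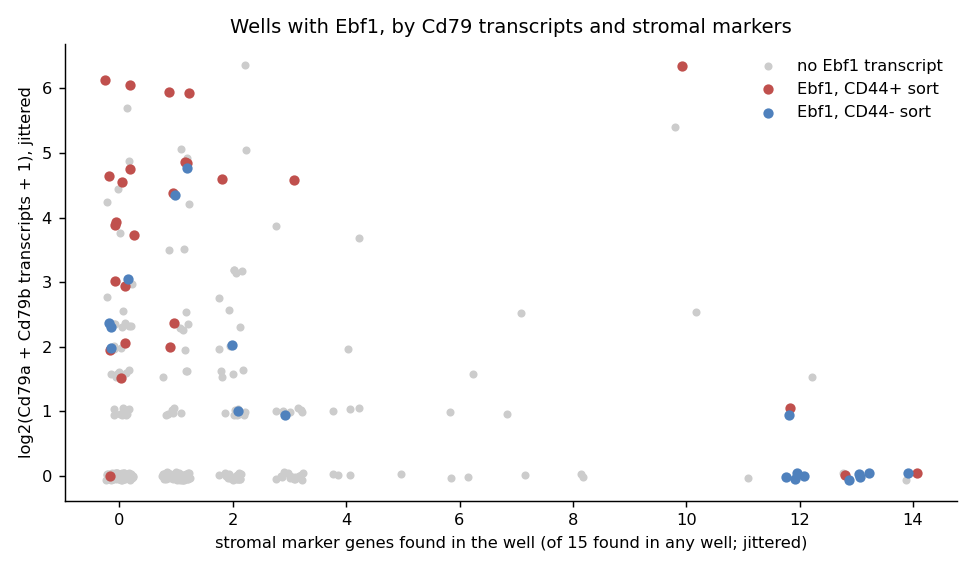
Each point is a kept well, placed by the number of stromal marker genes found (x axis) and by log2 of the Cd79a and Cd79b transcripts plus 1 (y axis), with a small random shift; coloured points hold Ebf1, red in the CD44+ sort and blue in the CD44- sort. The Ebf1 wells fall into a group with Cd79 and few stromal markers and a group with 12 to 14 stromal markers and mostly no Cd79.

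Of the 31 Cd79 wells with Ebf1 and few stromal markers 22 were CD44+ and 9 CD44-, while of the 11 stromal wells with Ebf1 2 were CD44+ and 9 CD44-. The cut of 10 stromal markers was set with these wells in view, so no test of Ebf1 is given at that cut. A cut of 3 markers was planned as an alternative. Without wells at or above it, Ebf1 differed by 4.60 in the unfiltered edgeR fit (SE 0.93). The cut also removes the 11 stromal wells with Ebf1 and leaves 1 well without Cd79 that held it. This value therefore follows from the removal, does not describe all wells and is not a test of Ebf1. That fit called 9 of the 10 genes with Ebf1 counted, among 182 of 15886 genes called. Rag2 moved with another setting: without low-quality wells its unfiltered log2 difference was 1.69 (SE 0.65, adjusted p = 0.258 in edgeR), and it was found in 30 of 108 Cd79 wells (27.8%) and 15 of 117 other wells (12.8%).

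The CD44+ and CD44- sorts were then compared over all kept wells. Rag1 stood at 33.4, 121 and 7.03 CPM in CD44+ libraries 1, 2 and 3 and at 30.9, 78.9 and 88.2 CPM in the CD44- libraries. Rag2 stood at 86.8, 33.1 and 13.5 CPM against 51.5, 88.8 and 37.8 CPM. Dntt stood at 201, 285 and 10.6 CPM against 175, 128 and 171 CPM. The sorts overlapped for all 3 recombination genes, and the lowest value of each belonged to CD44+ library 3.

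Lef1 stood at 33.4, 102 and 5.86 CPM in the CD44+ libraries and at 41.2, 88.8 and 75.6 CPM in the CD44- libraries. Ebf1 stood at 13.4, 74.2 and 7.62 CPM against 30.9, 59.2 and 183 CPM, and Pou2af1 at 114, 128 and 14.6 CPM against 113, 59.2 and 145 CPM. The sorts overlapped for these genes as well. Spib stood at 46.8, 87.7 and 8.20 CPM against 165, 39.5 and 94.5 CPM.

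Irf4 stood at 53.4, 31.3 and 1.76 CPM in the CD44+ libraries against 155, 19.7 and 56.7 CPM in the CD44- libraries. Bach2 stood at 60.1, 77.8 and 16.4 CPM against 103, 59.2 and 88.2 CPM. Fcrla stood at 73.5, 62.6 and 8.79 CPM against 371, 88.8 and 63.0 CPM. The value of Fcrla in CD44- library 1 was the highest of any of the 10 genes in any library. CD44+ library 3 was the lowest of the 6 for each of the 10 genes. Its median well held the most transcripts, and 18 of its 87 wells (20.7%) held Cd79a or Cd79b, the smallest share.

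**Figure D3:**
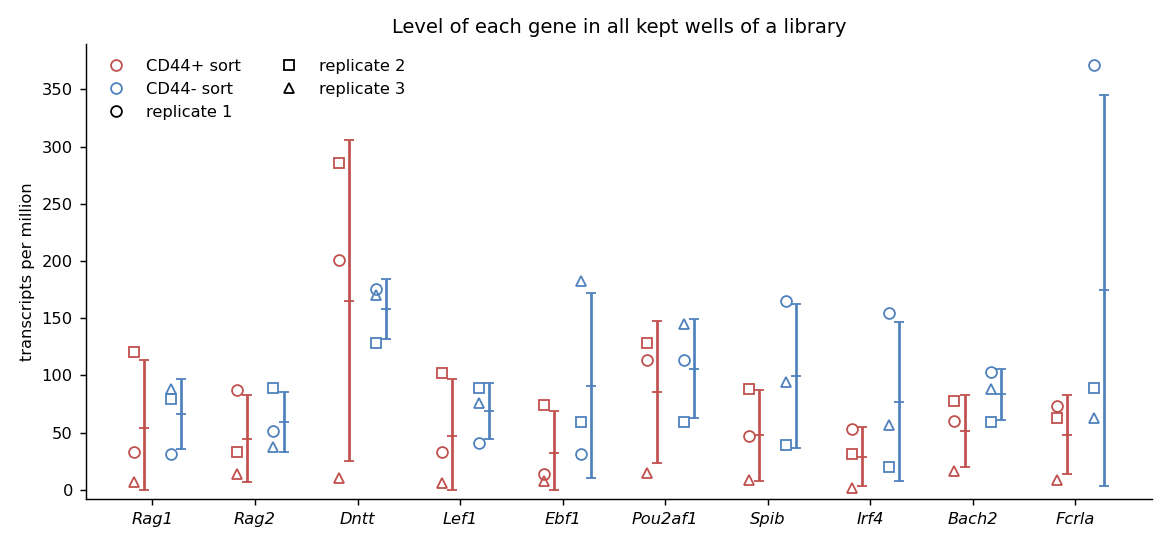
Level of each gene in CPM (y axis) summed over all kept wells of a library, for the 3 CD44+ libraries (red, left) and the 3 CD44- libraries (blue, right); symbols are replicates and bars are the mean and SD, drawn no lower than 0. The sorts overlap for every gene, and CD44+ replicate 3 is lowest throughout.

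None of the 10 genes passed the test between the sorts. In edgeR, 7 of them passed the filter and 0 were called, while 25 of 2463 genes tested were (1.02%), 1 with a higher level in CD44+ libraries (0.0406%) and 24 with a lower (0.974%); 470 had an unadjusted p under 0.05, and DESeq2 called 0 of 10. The log2 difference was -2.12 for Fcrla (SE 1.04, adjusted p = 0.302), -1.20 for Spib (SE 0.93, adjusted p = 0.502), -0.85 for Bach2, -0.60 for Lef1, -0.44 for Pou2af1 and -0.35 for Rag1 (SE 0.98, adjusted p = 0.873), and 0.01 for Dntt (SE 0.98, adjusted p = 1.00). Without CD44- library 1 the differences were -0.66 for Fcrla and -0.48 for Spib, and without CD44+ library 3 they were -1.31 and -0.46, with -0.17 for Bach2. With the replicate number as a block, 156 genes were called (6.33%, with 1.75% higher and 4.59% lower) and again 0 of the 7. Fcrla stood at -1.92 in that edgeR fit (SE 0.52, adjusted p = 0.0546). Only replicates 2 and 3 share a plate by the labels. The median over the 7 genes was -0.60 without the block, against -0.04 over all genes tested. With the block it was -1.16 against -0.03, and 0 of the 7 were above 0. Without the block, medians of other lists were -0.97 (8 pre-B genes), -0.67 (10 other B lineage regulators) and 0.91 (11 red cell markers). Cd79a and Cd79b themselves differed by -0.93 and -0.69. The share of Cd79 wells enters these sums, and its part was not tested. Of the other lists, 0 of 10 tested B lineage regulators and 0 of 8 tested pre-B genes were called, and 5 of 11 tested stromal markers were lower in the CD44+ sort. The 15 stromal markers in the files summed to 167, 1495 and 909 CPM in the CD44+ libraries and to 6028, 12644 and 32255 CPM in the CD44- libraries. Their part in the sort values of Ebf1 was not tested.

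The share of wells with each gene was compared after thinning each well to 1000 transcripts, over 3 against 3 libraries. Only Rag2 reached the smallest exact p possible, 0.1, with 4.72% ± 0.58 of CD44+ wells against 6.85% ± 1.46 of CD44- wells, and as the mean of 20 draws its exact permutation p was 0.6. Fcrla was found in 5.36% ± 3.06 of CD44+ wells and 11.1% ± 7.83 of CD44- wells (SD, n = 3 each; exact permutation p = 0.3), and Dntt in 8.87% ± 6.98 against 5.95% ± 2.91 (exact p = 0.5). Without thinning Fcrla was found in 11.04% ± 7.75 against 17.6% ± 12.9 and Dntt in 13.9% ± 11.2 against 19.5% ± 19.4. The direction of Dntt differed between these values, and its share gives no order of the sorts.

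Some of the 10 genes were grouped into sets named late and early, and their joint presence in single wells was counted. The late set was Spib, Irf4 and Bach2 and the early set Dntt, Rag1 and Lef1. The names are labels, and wells with both sets are not shown to mix steps of the lineage. Of the Cd79 wells with either gene, Rag1 shared 0.42 with Spib, against 0.47 with Dntt and 0.41 with Lef1. Of 134 Cd79 wells, 46 held genes of both sets (34.3%, 95% exact binomial interval 26.3 to 43.0, counting error only). A further 27 held the late set alone, 25 the early set alone and 36 neither. Of the 73 wells with the late set 63.0% also held the early set, and of the 71 wells with the early set 64.8% also held the late set.

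The classes were found in both sorts. In the CD44+ sort 33 of 88 Cd79 wells held both sets, 15 the late set alone, 13 the early set alone and 27 neither. In the CD44- sort 13 of 46 held both, 12 the late set alone, 12 the early set alone and 9 neither. By library both sets were found in 5, 26 and 2 wells of the CD44+ sort and in 4, 6 and 3 wells of the CD44- sort. CD44+ library 2 thus gave 26 of the 46 wells.

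**Figure D4:**
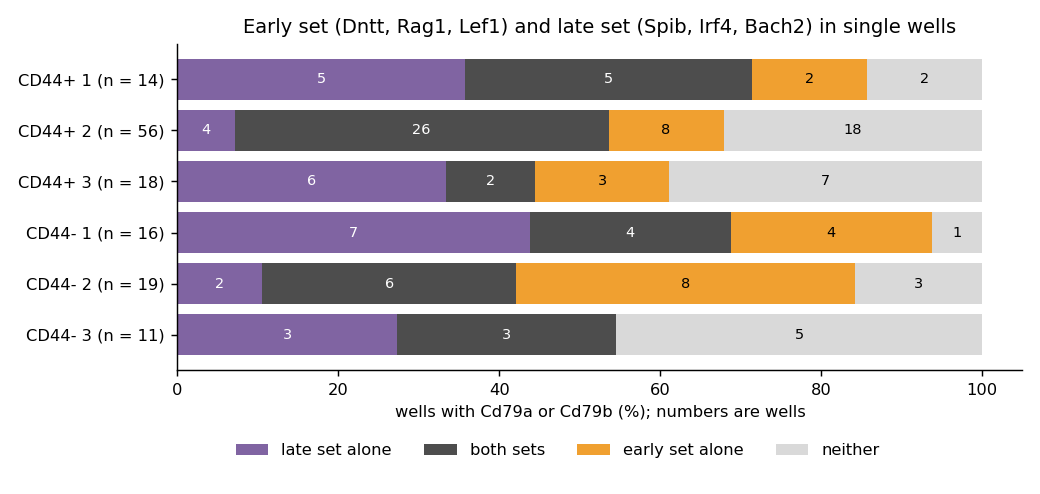
Share of the Cd79 wells of each library (x axis, percent; numbers are wells) that held the late set alone, both sets, the early set alone or neither. Both sets were found together in every library, from 2 wells in CD44+ replicate 3 to 26 wells in CD44+ replicate 2.

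Depth and the Cd79 count differed between these classes. The median well with both sets held 4410 transcripts, against 2678 with the late set alone, 1916 with the early set alone and 5840 with neither. The wells with neither set held a median of 1 Cd79 transcript and 25573 CPM of the 12 neutrophil and monocyte markers, against 4591 CPM in wells with both sets; the part of either in joint detection was not tested. With at least 2 Cd79 transcripts 45 of 91 wells held both sets (49.5%), and after thinning to 1000 transcripts 19 of 89 did (21.3%). Outside Cd79 wells 3 of 209 wells held both.

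By pairs of genes in Cd79 wells, Pou2af1 and Spib were found together most often, in 34 of 63 wells with either (0.54), followed by Rag1 with Pou2af1 in 30 of 59 (0.51) and Dntt with Lef1 in 30 of 60 (0.50). The lowest values belonged to Lef1 with Fcrla, in 14 of 70 wells (0.20), and to Dntt with Fcrla (0.21) and Dntt with Irf4 (0.21). Dntt was found with Spib in 21 of 74 wells and with Bach2 in 21 of 71. These shares move with the depth of the wells.

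Genes outside the sets were then compared between wells with the late set alone and wells with the early set alone. Vpreb1 was found in 3 of 27 late-set wells and 12 of 25 early-set wells, and Igll1 in 3 of 27 and 14 of 25. CD44- library 3 had no early-set well and was left out. In 5 of 5 libraries with at least 2 wells of each class, the level of both genes was lower in late-set wells. How many of all genes were lower in 5 of 5 was not counted. The class sums were small, such as 3118 transcripts in the late-set wells of CD44- library 2. The early-set wells of CD44+ libraries 1 and 3 summed to 3833 and 10683 transcripts. Values of 0 and single levels therefore rest on few transcripts. Vpreb1 stood at 0, 187, 33.4, 0 and 0 CPM in the late-set wells of these libraries and at 782, 442, 187, 702 and 334 CPM in their early-set wells. Igll1 stood at 0, 93.5, 33.4, 0 and 0 CPM against 521, 523, 93.6, 1263 and 400 CPM, in the order CD44+ 1, 2 and 3 and CD44- 1 and 2. The late-set wells of CD44- library 3, which has no early-set well to set beside them, stood at 468 CPM for Vpreb1 and 596 CPM for Igll1. With that library counted, the values of the classes overlapped for both genes.

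Other genes of the pathway were spread differently over the classes. Fcrla was found in 13 of 27 late-set wells and 3 of 25 early-set wells, and its level was higher in late-set wells in 4 of 5 libraries. Pou2af1 was found in 11 of 27 and 2 of 25. Rag2 was found in 3 of 27 and 5 of 25, and Vpreb3 in 17 of 27 and 19 of 25. In wells with both sets these genes were found more widely, such as Blnk in 35 of 46 and Foxo1 in 33 of 46, and those wells were also deeper.

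**Figure D5:**
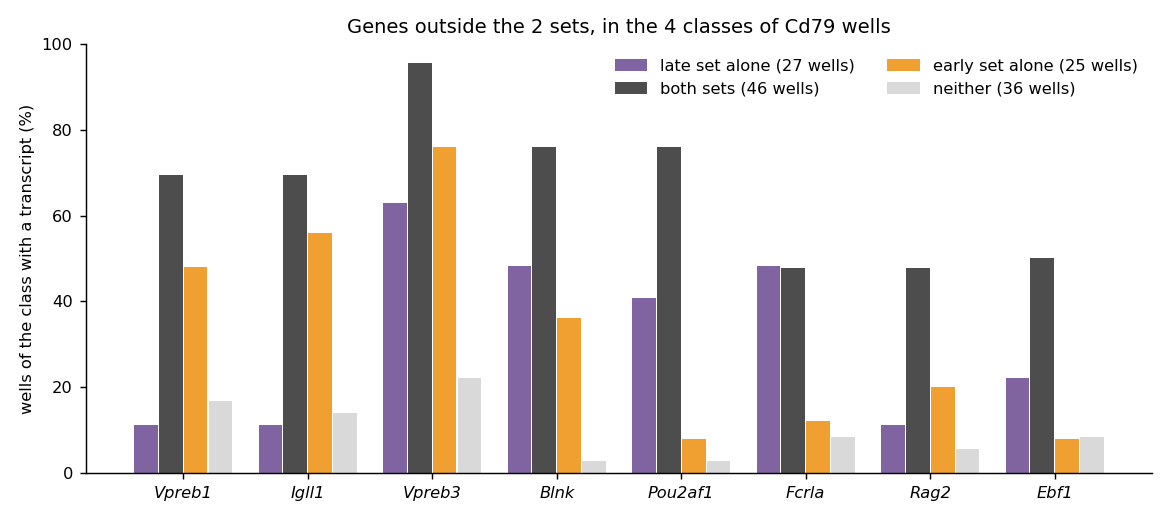
Share of Cd79 wells with a transcript of each gene (y axis, percent) in wells with the late set alone, both sets, the early set alone or neither, pooled over libraries. Vpreb1 and Igll1 are low in late-set wells at 11.1% each, against 48.0% and 56.0% in early-set wells, and Fcrla and Pou2af1 lie the other way.

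No gene passed the test between these classes. In edgeR over 5 libraries, with 24 late-set and 25 early-set wells, 127 genes passed the filter and 0 were called (0%); 5 had an unadjusted p under 0.05, and DESeq2 called 0 with 4. Without the filter 0 of 10983 genes were called, 24 had an unadjusted p under 0.05, and the spread was again pooled over genes. In that fit Igll1 differed by -3.31 on the log2 scale (SE 1.24, unadjusted p = 0.00769, adjusted p = 0.998) and Vpreb1 by -2.97 (SE 1.19, unadjusted p = 0.0125, adjusted p = 0.998), lower in late-set wells. Fcrla differed by 2.47 (SE 1.34, adjusted p = 0.998). The sets were chosen with results of these data known, and a few wells per class and library limit what can be detected.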

How the data were processed

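The deposited values are expected counts per gene and well: the authors corrected transcript tags to estimated molecule numbers, which need not be whole (90.3% of values above 0 were whole). Reads were aligned with BWA 0.7.15 to mm10, per the submitters' processing notes; for the counter, the annotation and strand, the method is not given in the sources used here. Well numbers were read in row order over 16 rows of 24, which the labels do not state, so that on shared plates wells 1 to 192 are CD44+ and wells from 193 CD44-. No value column was left unused (0).

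Wells with at least 1000 transcripts were kept. Low quality meant at least 10% of transcripts from Kcnq1ot1 and the genes that accompany it (19 in all, r of at least 0.70), or at least 50% from 35 mitochondrial genes. Each well was sorted as a single cell; no doublet caller was run, and wells above the 99th percentile were left out as an alternative. Wells were summed per library and class and rounded. edgeR 4.0.16 in R 4.3.3 gave quasi-likelihood tests with Benjamini-Hochberg adjustment over all genes tested, at 0.05; the SE is the size of the log2 difference divided by the square root of F. DESeq2 1.42.0 was an alternative. Python 3.11.15, numpy 2.4.6, pandas 2.3.3 and scipy 1.17.1 gave the exact tests, the 95% Clopper-Pearson intervals and the limit for a count of 0 (3 counts), which cover counting error only. The fits were tested on simulated data.

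Same-numbered libraries of the sorts share a plate for replicates 2 and 3 by the labels. Their deviations from the sort means correlated at 0.456, 0.312 and 0.321 over 2463 genes, against -0.355 to 0.0825 for other pairings. Each deviation is taken from the mean of its own sort, so high same-numbered values lower the others. The other pairings are therefore not a separate comparison. Named genes are the 10 members, Cd79a and Cd79b, listed genes, and up to 10 called genes in each direction of a comparison. The members and lists were chosen with earlier results of these data known, and the Cd79 bins and the cut of 10 stromal markers after the data were seen.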

Additional observations from a re-analysis of the deposited data

Results flagged for a closer look

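Wells below 1000 transcripts, which enter no comparison, still held transcripts of all 10 genes, in each case in more wells than the limit that a count of 0 allows (0.251% of 1193 wells). Dntt and Fcrla were each found in 2.26% of these wells, Pou2af1 in 1.93%, Rag1 in 1.84% and Bach2 in 1.59%. Lef1 and Irf4 were each found in 1.26%, Rag2 in 1.17%, Spib in 1.09% and Ebf1 in 0.922%. The median of these wells was 109 transcripts. Among the 104 of them with Cd79a or Cd79b, Dntt was found in 13.5%, Pou2af1 and Fcrla in 12.5% each and Rag2 in 4.81%. Among the 1089 without, Dntt was found in 1.19%, Pou2af1 in 0.918%, Fcrla in 1.29% and Rag2 in 0.826%. The wells with Cd79 were the deeper ones, with a median of 439 against 91 transcripts.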

How the results depend on the processing

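Between the sorts no member was called in any setting run; 4 to 10 of the 10 were tested, and 0 after thinning. The genes called in all (25) became 476 without the filter, 285 with DESeq2 and 156 with the replicate number as block. They became 38 with wells of at least 500 transcripts, 56 without low-quality wells and 5 without wells above the 99th percentile. They became 0 after thinning, 0 and 1 without wells with at least 3 or 10 stromal markers, and 0 to 115 with a library left out. The log2 difference of Dntt turned to -0.054 with DESeq2's size factors, -0.80 with the block, -0.015 with wells of at least 2000 transcripts, -0.69 and -0.44 without wells with at least 3 or 10 stromal markers, and ranged from -0.52 to 0.72 with a library left out. Without the filter Pou2af1 turned to 0.019 and Rag1 to 0.093, and without wells above the 99th percentile Rag1 turned to 0.0086. With a library left out, Pou2af1 ranged from -0.78 to 0.29, Rag1 from -1.89 to 0.36 and Lef1 from -2.04 to 0.14, while Fcrla ranged from -2.55 to -0.66, Spib from -2.21 to -0.46 and Bach2 from -1.25 to -0.17.

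Between Cd79 wells and other wells, the filtered test called 1 member; it called 8 without the filter, 8 with DESeq2, 0 with no library block, 2 with at least 2 Cd79 transcripts, 0 with both Cd79 genes required, and 0 to 2 with a library left out. No member passed the filter, and none was tested, with wells of at least 2000 transcripts, without low-quality wells, after thinning, without wells rich in stromal markers, without CD44- replicate 1 and without CD44+ replicate 2. The genes called in all (15) became 239, 148 and 4 without the filter, with DESeq2 and with no block, 25 and 8 with wells of at least 500 or 2000 transcripts, 7 without low-quality wells, 1 after thinning, 3 and 5 without wells with at least 3 or 10 stromal markers, 59 and 37 under the stricter Cd79 rules, and 1 to 39 with a library left out. Of the 8 members called without the filter, 3 were called after thinning. Dntt was not called without CD44- replicate 3, CD44+ replicate 1 or CD44+ replicate 3.

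The difference in share of wells (CD44+ minus CD44-, percentage points) turned for Rag2 to 1.36 without thinning and 0.579 over 20 draws, for Dntt to -5.60 and -1.59, and for Lef1 to 0.742 and 1.42, with 4.17 without low-quality wells; Bach2 turned to 6.30 after thinning to 2000. The difference in Cd79 wells turned to 1.59 with both Cd79 genes required. Wells with both sets made up 49.5%, 55.2% and 21.3% of Cd79 wells with at least 2 transcripts, with both Cd79 genes and after thinning. The late-set comparison called 0 genes in every setting run. The causes of these changes were not tested. Few libraries and shallow wells limit every value, and a gene not found in a well may be present in the cell.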
